A study of Mus musculus with 30 samples.

Results

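The 10 genes described here, for secreted proteins of the gut lining, were followed through the colon of 30 mice of 6 genotypes, 5 mice in each: Lcn2, Slpi, Pla2g2a, Reg3b, Saa1, Saa3, Retnlb, Dmbt1, Pigr and Lyz1. They are 10 of the 55487 gene IDs in the count table and were chosen by symbol, as antimicrobial and acute-phase proteins that epithelium releases into the lumen. Earlier results of these data were known when they were chosen, so shares of all genes printed beside their counts do not test the list. WT mice were the controls. The single knockouts were XBP1IEC-KO and Casp8IEC-KO. Mice with both alleles, labelled XBP1IEC-KO;Casp8IEC-KO, are called the double knockout. The other groups were XBP1IEC-KO;Casp8IEC-KO;TNFR1IEC-KO, called the TNFR1 triple knockout, and XBP1IEC-KO;Casp8IEC-KO;MLKLKO, called the MLKL triple knockout. Both triple knockouts thus also carried the 2 alleles of the double knockout. IEC is the usual abbreviation for intestinal epithelial cell, and the MLKL label names no cell type. The Cre driver, strain, age and sex of the mice are not stated in any source used here.

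The colon epithelium keeps bacteria away from its surface with mucus and with secreted proteins that starve, lyse or coat them. Many of these genes are quiet in an uninflamed colon and are switched on by microbial products and by cytokines such as IL-22, IL-17A, TNF and IL-1, while others are made all the time. XBP1 is a transcription factor of the unfolded protein response, on which secretory cells depend. Caspase-8 starts apoptosis downstream of death receptors such as TNFR1, the main receptor for TNF, and restrains necroptosis, the lytic death that MLKL carries out.

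Each library was a Lexogen QuantSeq library, which reads the 3′ end of transcripts, made from the total RNA of 1 mouse. Library totals ran from 3516793 to 5823060 reads, so that 1 read in the median library was worth 0.232 CPM (counts scaled to a library of 1000000). The tissue label was checked by Hoxb13, a gene of the distal colon, which lay between 245 and 632 CPM in all libraries. The targeted genes were lowered in part or not at all. Which exons were deleted is not stated either, so 3′ reads that remain do not show an intact allele. Casp8 was at 52.6 to 59.0 CPM in WT and at 24.7 to 34.4 CPM in the Casp8 knockout, but XBP1 knockout replicate 2 had 20.6 CPM, which goes against its label. Mlkl was at 1.25 to 4.69 CPM in 4 MLKL triple knockouts and at 10.7 CPM in replicate 5. Xbp1 was at 50.3 to 64.7 CPM in the XBP1 knockout and 55.0 to 102 CPM in WT, but the double knockout was not below WT, at 70.4 to 134 CPM, and the MLKL triple knockout had 60.2 to 91.8 CPM. Tnfrsf1a was at 51.0 to 71.9 CPM in the TNFR1 triple knockout, 66.9 to 81.9 CPM in WT and 74.2 to 110 CPM in the double knockout. Sex, called from the reads, was uneven: 1 WT mouse, 3 XBP1 knockouts, 3 Casp8 knockouts, 1 double knockout, 4 TNFR1 triple knockouts and 5 MLKL triple knockouts were female. None of the members differed between the sexes in an edgeR model with genotype, in which 16 of 15458 genes did. Reg3b came nearest, with a male minus female log2 difference of -4.44 (adjusted p = 0.0966). Since the RNA is from whole tissue, fewer cells of a type and less RNA per cell cannot be told apart.

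The members fell into groups by level. Lcn2, Slpi, Pla2g2a, Saa3 and Retnlb were low in WT and high in the double knockout, Saa1, Dmbt1 and Pigr were abundant everywhere, and Reg3b and Lyz1 were low in most mice. Saa1 lies 24.8 kb from Saa3 on chromosome 7, is expressed far more and differed less between WT and the double knockout. Its promoter is printed beside those of 3 genes of the first kind. Each is the 250 bases before the RefSeq start on GRCm38.p6, 5′ to 3′ along the gene, with matches to the C/EBP core TTGCNNAA in capitals. Lcn2 lies on the minus strand at chr2:32387740-32387989, Slpi on the minus strand at chr2:164356508-164356757, Saa3 on the minus strand at chr7:46715677-46715926 and Saa1 on the minus strand at chr7:46742981-46743230.
Lcn2: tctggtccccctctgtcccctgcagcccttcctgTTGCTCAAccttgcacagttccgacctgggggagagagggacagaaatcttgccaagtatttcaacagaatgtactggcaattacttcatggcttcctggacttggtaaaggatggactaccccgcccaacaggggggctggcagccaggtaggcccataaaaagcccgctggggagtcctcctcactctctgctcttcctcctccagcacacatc
Slpi: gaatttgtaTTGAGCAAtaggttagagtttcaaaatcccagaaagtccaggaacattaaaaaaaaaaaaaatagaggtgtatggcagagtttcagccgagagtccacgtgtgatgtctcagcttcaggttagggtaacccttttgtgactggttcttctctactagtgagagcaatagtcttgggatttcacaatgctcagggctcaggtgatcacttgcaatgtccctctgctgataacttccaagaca
Saa3: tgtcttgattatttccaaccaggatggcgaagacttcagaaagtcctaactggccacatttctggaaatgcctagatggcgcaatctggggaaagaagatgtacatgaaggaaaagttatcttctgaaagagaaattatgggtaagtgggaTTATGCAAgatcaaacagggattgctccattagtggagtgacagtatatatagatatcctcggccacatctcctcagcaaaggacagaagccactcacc
Saa1: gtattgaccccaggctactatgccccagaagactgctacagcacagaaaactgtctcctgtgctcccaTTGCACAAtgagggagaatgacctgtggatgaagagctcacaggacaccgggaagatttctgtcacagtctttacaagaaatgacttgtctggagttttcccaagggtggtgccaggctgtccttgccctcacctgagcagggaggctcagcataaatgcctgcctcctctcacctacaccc
Both strands were searched for that core, for the STAT element TTCNNNGAA and for the NF-kB consensus, in the 7 members that have a promoter in the RefSeq table. Pla2g2a, Retnlb and Dmbt1 have none there. On GRCm38 the genes not printed lie, by GENCODE M21, with Pla2g2a at chr4:138831857-138835186, Retnlb at chr16:48816856-48818892, Dmbt1 at chr7:131032053-131121630, Reg3b at chr6:78370657-78373466, Pigr at chr1:130826684-130852249 and Lyz1 at chr10:117287797-117292868. The C/EBP core was found in 5 of 7 members (Lcn2, Slpi, Saa1, Saa3 and Lyz1), against 9.56% of 32851 promoters, and it stood 216 bases before the start of Lcn2, 241 of Slpi, 99 of Saa3 and 182 of Saa1. The STAT element was found in 1 of 7, Reg3b, against 7.02% of promoters, and the NF-kB consensus in 0 of 7, against 3.9%. A match is a run of letters and not a binding site.

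**Figure D1:**
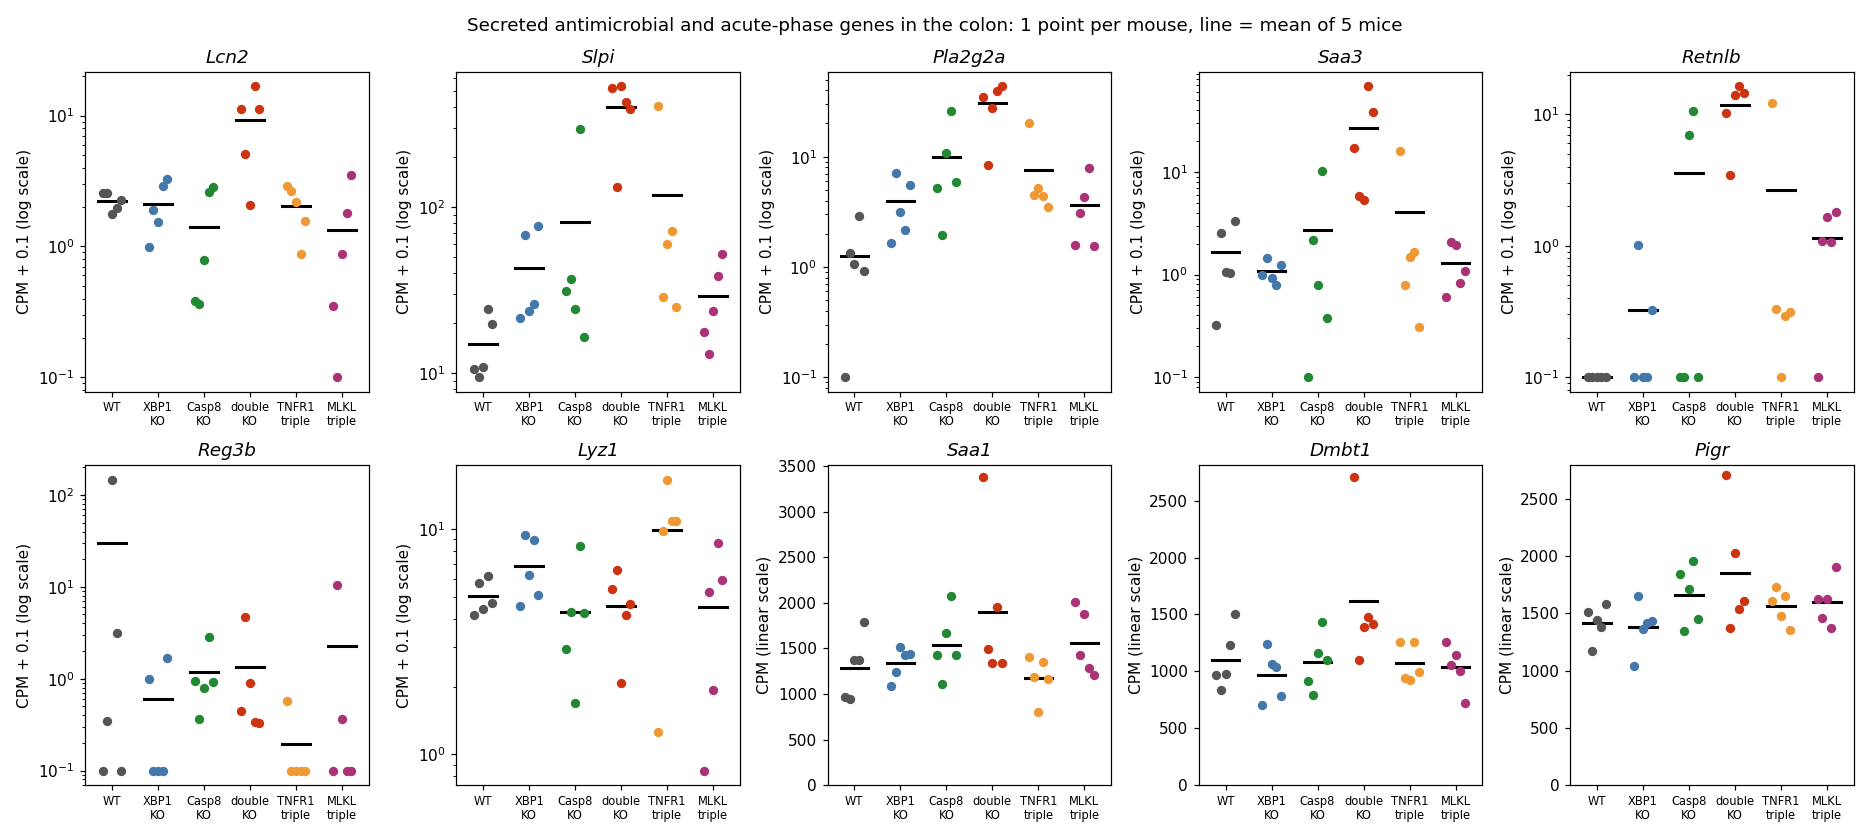
CPM of the 10 genes in 30 mice, 1 point per mouse and a line at the mean of 5; the first 7 panels have a log axis after adding 0.1 CPM, the last 3 a linear axis from 0. The double knockout was highest for Slpi, Pla2g2a, Saa3 and Retnlb, while Casp8 knockout replicate 4 and TNFR1 triple knockout replicate 1 stood apart from their groups.

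In the double knockout, 8 of the 10 genes were higher than in WT and 1 was lower at an adjusted p under 0.05 (edgeR quasi-likelihood test), where 21.3% of all genes tested passed, 11.1% higher and 10.2% lower. Higher genes were Lcn2, Slpi, Pla2g2a, Saa1, Saa3, Retnlb, Dmbt1 and Pigr, and the lower one was Reg3b. Saa3, Retnlb and Reg3b needed libraries of the double knockout to pass the low-count filter, so for them passing it and being read there are not separate facts. Of the other 7 genes, 6 were higher and Lyz1 did not pass. The median fitted log2 difference of the 10 was 1.38, against 0.01 over all genes, which describes a list that holds those 3.

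Slpi encodes secretory leukocyte peptidase inhibitor, which blocks neutrophil elastase and is itself antibacterial. It was at 10.6, 9.36, 10.7, 24.3 and 19.8 CPM in the 5 WT mice and at 525, 131, 533, 431 and 390.1 CPM in the 5 double knockouts. Every double knockout was above every WT mouse, and replicate 2 was the lowest of its group. The means were 15 ± 6.7 CPM and 402 ± 163 CPM (SD, n = 5 each), 26.9-fold apart, and the fitted log2 difference in edgeR was 4.79 ± 0.78 (SE; adjusted p = 7.98e-05).

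Pla2g2a encodes a secreted phospholipase that breaks down bacterial membranes. GENCODE M21 lists it as a polymorphic pseudogene, since some inbred strains carry a disrupted copy, and the strain of these mice is not known here. Its levels were 0, 1.23, 0.955, 2.81 and 0.812 CPM in WT and 34.3, 8.38, 27.6, 39.4 and 43.3 CPM in the double knockout. The groups did not overlap, and replicate 2 was again the lowest double knockout. Means of 1.16 ± 1.03 CPM and 30.6 ± 13.7 CPM gave a 26.4-fold ratio and an edgeR log2 difference of 4.73 ± 0.67 (SE; adjusted p = 1.71e-05).

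Saa3 encodes a serum amyloid A made locally in inflamed tissue, by epithelium and by macrophages. WT mice had 0.225, 2.46, 0.955, 0.936 and 3.25 CPM and double knockouts 17, 5.74, 5.16, 67.7 and 37.8 CPM. The lowest double knockout, replicate 3, was above the highest WT mouse, and the spread within the double knockout was wide. The means were 1.57 ± 1.25 CPM and 26.7 ± 26.5 CPM, with an edgeR log2 difference of 4.17 ± 0.84 (SE; adjusted p = 0.000703).

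Retnlb encodes RELM-beta, a goblet cell product that kills Gram-negative bacteria. It had no read in any WT mouse and was at 10.1, 3.35, 13.9, 16.2 and 14.3 CPM in the double knockout. Against a floor of 3 reads over the whole WT group, which is 0.145 CPM, the double knockout mean of 11.6 ± 5.09 CPM was at least 79.7-fold higher (edgeR adjusted p = 0.00104). The median of the 10 genes is 1.38 with Retnlb at its bound as well, since its fitted value and the bound both lie above the median. All 5 double knockouts carried the transcript, and replicate 2 was once more the lowest.

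Lcn2 encodes lipocalin-2, which captures bacterial siderophores and so withholds iron. Its levels were 2.47, 2.46, 1.67, 1.87 and 2.17 CPM in WT and 11.2, 5.03, 1.98, 16.6 and 11.2 CPM in the double knockout. Replicate 3 of the double knockout lay inside the WT range while the other 4 were above it, so the groups overlapped. The means were 2.13 ± 0.356 CPM and 9.19 ± 5.75 CPM, 4.32-fold apart, with an edgeR log2 difference of 2.15 ± 0.52 (SE; adjusted p = 0.00338). The same replicate 3 had the highest Slpi of its group.

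Slpi, Pla2g2a, Saa3 and Retnlb, 4 of the 10 genes, had all 5 double knockouts above all 5 WT mice, where 4.84% of all genes did. Of these, only Slpi and Pla2g2a passed the low-count filter without double knockout libraries, so for Saa3 and Retnlb that share is no fair measure. With Lcn2 these 4 genes also passed under each alternative that tested them in this comparison, each single library left out included.

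Saa1, Dmbt1 and Pigr differed by less. Saa1 encodes a serum amyloid A that binds retinol and is made by colon epithelium. Its levels were 971, 945, 1369.8, 1369.8 and 1789 CPM in WT and 3384, 1491, 1338, 1955 and 1345 CPM in the double knockout, and the groups overlapped. The fitted log2 difference in edgeR was 0.61 ± 0.22 (SE; adjusted p = 0.0435). Dmbt1, a mucin-like scavenger receptor protein that aggregates bacteria, was at 964, 839, 973, 1231 and 1503 CPM in WT and 2712, 1095, 1389.8, 1476 and 1419.9 CPM in the double knockout, a log2 difference of 0.60 ± 0.20 (SE; adjusted p = 0.0296). Pigr, the receptor that carries IgA through the epithelium and is released with it, was at 1513, 1172, 1437, 1377 and 1579 CPM in WT and 2709.7, 1368, 2029, 1537 and 1607 CPM in the double knockout, a log2 difference of 0.43 ± 0.14 (SE; adjusted p = 0.0258).

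All 3 were highest in replicate 1 of the double knockout. That library also had the largest total and the smallest mitochondrial share of reads, 10.3% against 13.3 to 22.9% elsewhere, and the part of this in the values was not tested. Without it none of the 3 passed: Saa1 had a log2 difference of 0.33 (edgeR adjusted p = 0.255), Dmbt1 0.36 (0.172) and Pigr 0.28 (0.132). Saa1 also lost its call without double knockout replicate 4 or any 1 of WT replicates 1 to 4, Dmbt1 without WT replicate 1, 2 or 3, and Pigr without double knockout replicate 3 or WT replicate 2.

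Reg3b encodes a C-type lectin that kills bacteria and is strongly made in the small intestine. It was at 0, 0.246, 147, 3.04 and 0 CPM in WT, and WT replicate 3 alone held 147 CPM. Its neighbour Reg3g, 92.8 kb away, was at 69.2 CPM in the same mouse and at most 4.74 CPM in the other 29. The double knockouts had 0.343, 4.55, 0.794, 0.238 and 0.228 CPM. The fitted log2 difference was -4.58 ± 1.27 (SE; adjusted p = 0.00966) in edgeR with WT replicate 3 and 0.53 ± 1.27 (SE; adjusted p = 0.814) without it, so that the lower call rested on 1 mouse and the direction turned. WT replicate 3 was also the only female WT mouse, as called from the reads. With sex in the edgeR model the log2 difference was -2.35 (adjusted p = 0.239), and the part of sex in the level of that mouse was not tested. Apoa1 followed Reg3b most closely over the 30 libraries (Pearson r = 0.90), and the summed Paneth and small-intestine markers were also highest in that WT mouse, at 112 CPM against 8.55 to 59.0 CPM elsewhere. The part of those markers in the value was not tested.

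Lyz1 encodes the lysozyme of Paneth cells, which the colon normally lacks. It was at 4.05, 5.66, 4.3, 6.08 and 4.6 CPM in WT and 5.32, 6.46, 1.98, 4.04 and 4.55 CPM in the double knockout, with a log2 difference of -0.09 ± 0.46 (SE; adjusted p = 0.917). Of 16 Paneth and small-intestine markers, 6 to 8 in each group had no read, all of them alpha-defensins. Lyz1 and Lyz2, the lysozyme of macrophages, share runs of up to 104 identical bases in the last 300 of their transcripts, and Lyz2 was at 51.3 to 292 CPM, so a part of the Lyz1 reads may belong to either. Saa1 and Saa2 share up to 73 identical bases there, with Saa2 at 1.90 CPM or less, and Reg3b and Reg3g up to 17.

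**Figure D2:**
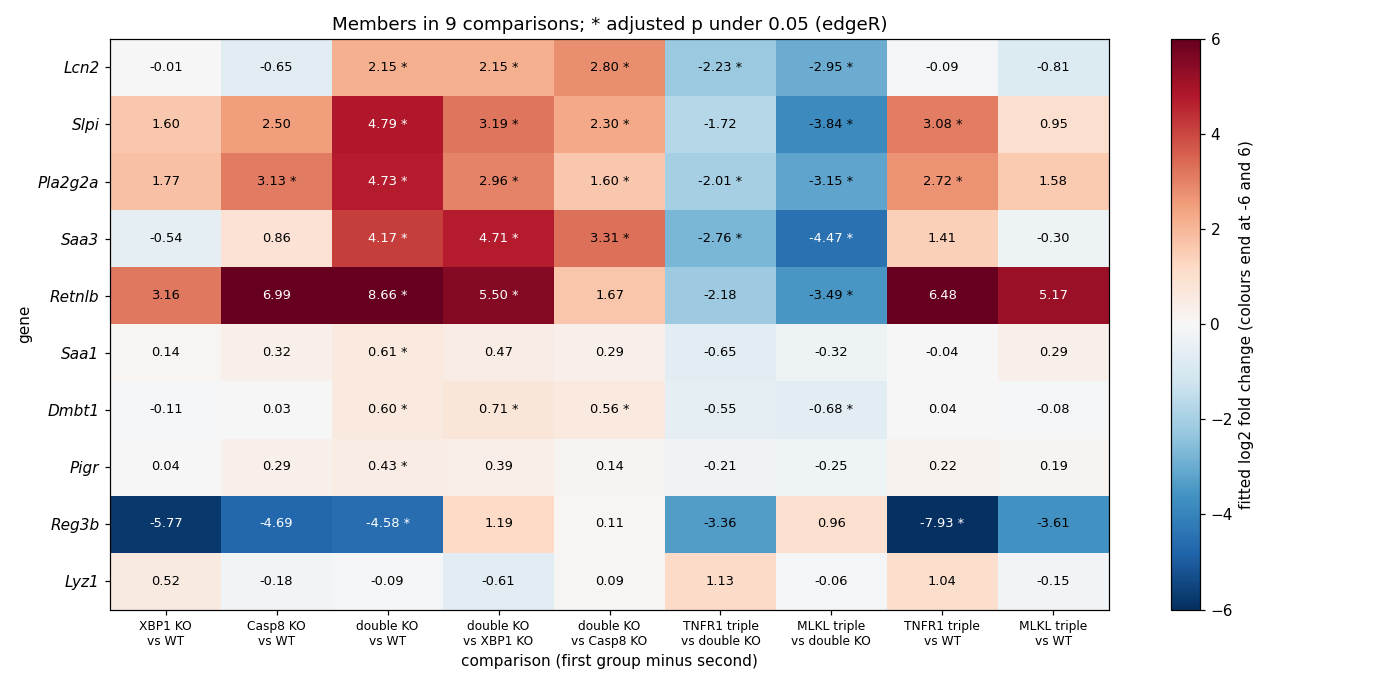
Fitted log2 differences of the 10 genes (rows) in 9 comparisons (columns), with a star where the adjusted p was under 0.05 in edgeR. Lcn2, Slpi, Pla2g2a and Saa3 were higher in the double knockout than in WT and in each single knockout, and lower in the MLKL triple knockout than in the double; fitted values of Retnlb against WT, where it had no read, are not bounds.

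The single knockouts were compared next, to see how much each allele did alone. In the XBP1 knockout 0 of the 10 genes passed against WT, where 0.0841% of all genes did. Slpi, Pla2g2a and Reg3b, 3 of the 10, had an unadjusted p under 0.05 in edgeR. The share of all genes at that unadjusted threshold was not computed, here or for such counts below. Limma voom called 0, and DESeq2 0 of the 4 to which it gave an adjusted p. The count was also 0 without replicate 2, the library of low Casp8. Slpi was at 21.5, 68.1, 23.7, 25.9 and 76.6 CPM and Pla2g2a at 1.56, 7.01, 3.07, 2.09 and 5.45 CPM in those mice. Replicates 2 and 5 were the highest for both, and for each gene the XBP1 knockout overlapped WT. Log2 differences from WT in edgeR were 1.60 ± 0.75 (SE; adjusted p = 0.355) for Slpi and 1.77 ± 0.79 (SE; adjusted p = 0.328) for Pla2g2a.

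In the Casp8 knockout 1 of the 10 genes, Pla2g2a, was higher than in WT, where 1.17% of all genes passed. It was at 5.12, 1.83, 10.7, 25.8 and 5.77 CPM, with replicate 4 the highest and replicate 2 inside the WT range. The log2 difference was 3.13 ± 0.72 (SE; adjusted p = 0.0219) in edgeR and 2.39 (adjusted p = 0.122) without replicate 4. The call was also lost without Casp8 knockout replicate 3, or without WT replicate 1, 2, 3 or 5 (adjusted p from 0.0518 to 0.0614), and with sex in the model (adjusted p = 0.0921). Casp8 knockout replicate 4 was also the highest of its group for Slpi, whose levels were 31, 36.6, 24.4, 296 and 16.5 CPM, and for Saa3, at 0, 2.09, 0.684, 10.04 and 0.275 CPM. It had 19.6 CPM of S100a8 and 15.1 CPM of Tnf, against at most 0.275 and 2.05 CPM in the other 4 Casp8 knockouts, and the part of these in its values was not tested. Retnlb was read in 2 Casp8 knockouts, at 6.84 and 10.5 CPM, and in none of the other 3. Lcn2 did not pass in this group, at 0.284, 0.261, 0.684, 2.51 and 2.75 CPM.

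The double knockout was higher than the XBP1 knockout for 6 of the 10 genes and lower for none, where 8.64% of all genes passed and 4.77% were higher. The 6 were Lcn2, Slpi, Pla2g2a, Saa3, Retnlb and Dmbt1, of which Saa3 and Retnlb passed the low-count filter through double knockout libraries. Of the 7 genes that passed it without them, 4 were higher. For Slpi, Pla2g2a, Saa3 and Retnlb no XBP1 knockout reached the lowest double knockout, against 3.23% of all genes above in that way. In edgeR the log2 differences were 3.19 ± 0.70 (SE; adjusted p = 0.00498) for Slpi and 4.71 ± 0.89 (SE; adjusted p = 0.00175) for Saa3. XBP1 knockout replicate 2, whose Casp8 level went against its label, did not carry these calls: without it 7 genes passed, with Pigr added. Dmbt1 lost its call without XBP1 knockout replicate 1 or 5 or double knockout replicate 1 (adjusted p from 0.0590 to 0.131).

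Against the Casp8 knockout 5 genes were higher in the double knockout and 0 lower, where 18.4% of all genes passed and 9.68% were higher. They were Lcn2, Slpi, Pla2g2a, Saa3 and Dmbt1, of which Saa3 passed the low-count filter through double knockout libraries. Of the 7 genes that passed it without them, 4 were higher. Lcn2 differed by 2.80 ± 0.56 (SE; adjusted p = 0.00102) on the log2 scale and Saa3 by 3.31 ± 0.78 (SE; adjusted p = 0.00385) in edgeR. Groups overlapped for all 10 genes, and Casp8 knockout replicate 4 reached the lowest double knockout for each. Leaving out 1 library at a time gave 2 to 5 genes: 2 without Casp8 knockout replicate 1, and 3 without Casp8 knockout replicate 2 or 5 or double knockout replicate 1 or 4. Lcn2 and Saa3 passed in all of these.

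Whether the 2 alleles together did more than their log2 effects added up was tested as an interaction. None of the 10 genes passed, where 1.38% of all genes did. Lcn2, Reg3b, Saa3 and Dmbt1, 4 of the 10, had an unadjusted p under 0.05 in edgeR, DESeq2 called 1 and limma voom 0. The interaction on the log2 scale was 2.80 ± 0.83 (SE; adjusted p = 0.0733) for Lcn2, 3.85 ± 1.44 (SE; adjusted p = 0.147) for Saa3 and 0.70 ± 0.99 (SE; adjusted p = 0.758) for Slpi. Without Casp8 knockout replicate 4 it passed for 2 genes, Lcn2 (adjusted p = 0.0443) and Saa3 (adjusted p = 0.0385), and without double knockout replicate 3 for 1.

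The TNFR1 and MLKL triple knockouts ask what remained of these changes when another gene was also targeted. By the labels this was the TNF receptor in intestinal epithelial cells, or the necroptosis effector with no cell type named. Both triple knockouts were compared with the same 5 double knockouts, so the 2 comparisons share those mice. In the MLKL triple knockout 6 of the 10 genes were lower than in the double knockout and 0 higher, where 7.65% of all genes passed and 4.21% were lower. These were Lcn2, Slpi, Pla2g2a, Saa3, Retnlb and Dmbt1.

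The 5 MLKL triple knockouts held 17.7, 13, 23.5, 38.5 and 52.3 CPM of Slpi, all below the lowest double knockout at 131 CPM. The edgeR log2 difference was -3.84 ± 0.73 (SE; adjusted p = 0.00137). Levels of Pla2g2a were 1.5, 2.96, 4.17, 7.8 and 1.46 CPM, again all below the double knockout, with a log2 difference of -3.15 ± 0.57 (SE; adjusted p = 0.000903). The level of Saa3 was 0.499, 1.98, 1.83, 0.731 and 0.973 CPM, and it differed by -4.47 ± 0.87 (SE; adjusted p = 0.00167).

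Those 3 genes and Retnlb had no MLKL triple knockout at the level of any double knockout, where 1.6% of all genes were lower in that way. Saa3 and Retnlb are in the fit through double knockout libraries, and of the 7 genes that passed the filter without those, 4 were lower. Levels of Retnlb were 0, 0.988, 1.56, 0.975 and 1.7 CPM, and it differed by -3.49 ± 0.996 (SE; adjusted p = 0.0302) in edgeR. For Lcn2 the levels were 0.25, 0, 0.782, 1.71 and 3.4 CPM, with replicate 5 above the lowest double knockout, and it differed by -2.95 ± 0.56 (SE; adjusted p = 0.00136). Replicate 5 is also the mouse with 10.7 CPM of Mlkl, and without it 5 of the 6 calls held and Dmbt1 did not pass (adjusted p = 0.0781). Lcn2, Slpi, Pla2g2a and Saa3 passed with any 1 library left out. Retnlb lost its call without double knockout replicate 4 or 5 or any 1 of MLKL triple knockout replicates 1 to 4, and Dmbt1 without double knockout replicate 1 or 4 or any 1 of MLKL triple knockout replicates 2 to 5. DESeq2 called 5 of the 9 to which it gave an adjusted p and also ended the call of Retnlb (adjusted p = 0.168). All MLKL triple knockouts were female and 4 of 5 double knockouts male. With sex in the model 6 genes were called.

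Against WT, 0 of the 10 genes passed in the MLKL triple knockout, where 0.854% of all genes did. Reg3b, 1 of the 10, had an unadjusted p under 0.05 in edgeR, and DESeq2 and limma voom called 0. Slpi had a log2 difference from WT of 0.95 ± 0.76 (SE; adjusted p = 0.588) in edgeR and Pla2g2a of 1.58 ± 0.81 (SE; adjusted p = 0.347). Retnlb was present in 4 of the 5 MLKL triple knockouts and in no WT mouse. Its mean of 1.05 ± 0.671 CPM was at least 7.20-fold above the WT floor, and it did not pass (edgeR adjusted p = 0.349).

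In the TNFR1 triple knockout 3 of the 10 genes, Lcn2, Pla2g2a and Saa3, were lower than in the double knockout and 0 higher, where 2.35% of all genes passed and 1.33% were lower. Saa3 is in the fit through double knockout libraries, and of the 7 genes that passed the filter without those, 2 were lower. Of the 10, 8 had an unadjusted p under 0.05. Slpi was at 409, 28.5, 59.8, 71.8 and 25.1 CPM, with replicate 1 at the level of the double knockouts and the other 4 below their lowest. That mouse also had the most of its targeted genes: Tnfrsf1a at 71.9 CPM, inside the WT range, against 51.0 to 60.7 CPM in the other 4, Xbp1 at 104 CPM against 52.1 to 58.6 CPM, and Casp8 at 32.0 CPM against 15.4 to 23.6 CPM. The double knockouts held more Tnfrsf1a than that mouse, at 74.2 to 110 CPM. Their Xbp1 was at 70.4 to 134 CPM and their Casp8 at 20.6 to 44.4 CPM, ranges that take in that mouse. Whether it carries its labelled alleles was not tested. The same mouse held 20.2 CPM of Pla2g2a, 15.8 CPM of Saa3 and 12.1 CPM of Retnlb, and the other 4 held at most 5.10, 1.56 and 0.232 CPM. Its S100a8 was 3.71 CPM against at most 0.695 CPM in the other 4. Its Lyz1, at 1.16 CPM, was the lowest of a group whose other mice had 9.73 to 16.5 CPM.

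The edgeR log2 differences from the double knockout were -2.23 ± 0.52 (SE; adjusted p = 0.0222) for Lcn2, -2.01 ± 0.52 (SE; adjusted p = 0.0357) for Pla2g2a and -2.76 ± 0.74 (SE; adjusted p = 0.0409) for Saa3. Slpi did not pass, at -1.72 ± 0.66 (SE; adjusted p = 0.149). Without replicate 1, 6 genes passed. Slpi was then lower by a log2 difference of -3.10 (adjusted p = 0.00374), Retnlb by -5.92 (adjusted p = 0.00255), and Lyz1 was higher by 1.41 (adjusted p = 0.0235). None passed without 1 of TNFR1 triple knockout replicates 2, 4 or 5 or of double knockout replicates 1, 4 or 5, and 1 passed without TNFR1 triple knockout replicate 3. The adjusted p of the 3 genes then stayed between 0.0514 and 0.167 where their calls were lost.

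Against WT the TNFR1 triple knockout was higher for Slpi and Pla2g2a and lower for Reg3b, 3 of the 10 genes, where 2.12% of all genes passed. All 5 TNFR1 triple knockouts were above all 5 WT mice for Slpi and for Pla2g2a, as were 1.49% of all genes. In edgeR the log2 differences were 3.08 ± 0.75 (SE; adjusted p = 0.028) for Slpi and 2.72 ± 0.73 (SE; adjusted p = 0.0437) for Pla2g2a. Without replicate 1 they were 1.69 (adjusted p = 0.261) and 1.91 (adjusted p = 0.253), and 0 genes passed. None passed without WT replicate 3 either, the mouse of high Reg3b, and 1 passed without WT replicate 1 or 2 or TNFR1 triple knockout replicate 4. Of the 10 fits with 1 library left out, Pla2g2a lost its call in 6 and Slpi in 4. Between the 2 triple knockouts 0 of the 10 genes differed in edgeR, where 0.259% of all genes did. Slpi and Lyz1, 2 of the 10, had an unadjusted p under 0.05, and DESeq2 and limma voom called 0.

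**Figure D3:**
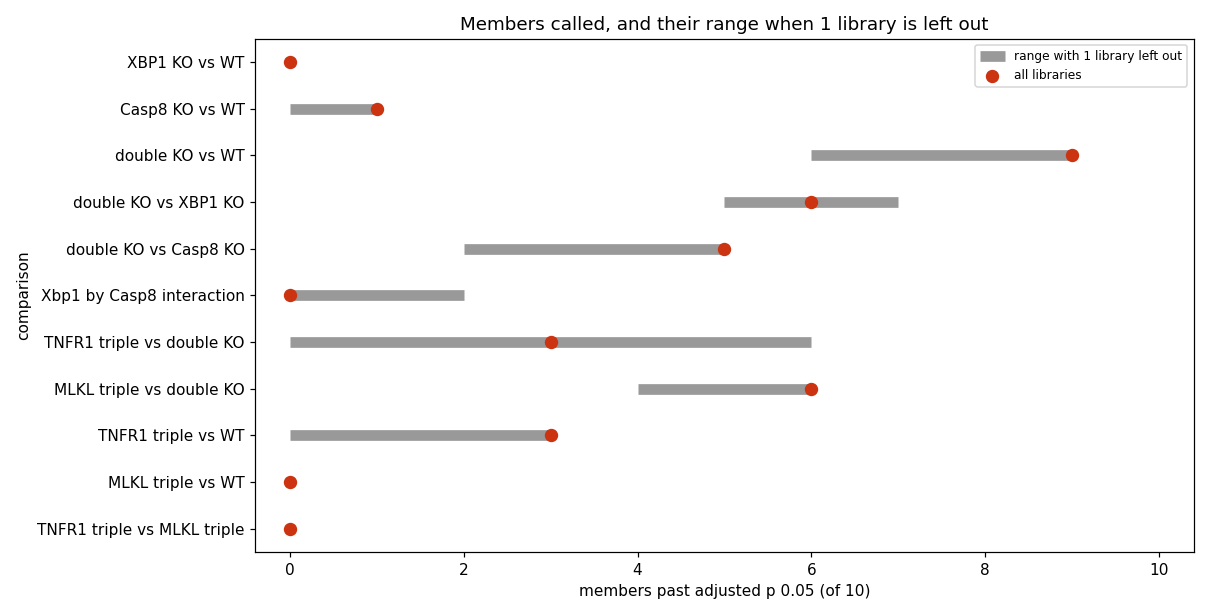
Number of the 10 genes past an adjusted p of 0.05 in each of 11 comparisons (points), with a bar from the lowest to the highest number when 1 library of the groups compared was left out. The count for the double knockout against WT ran from 6 to 9, and that for the TNFR1 triple knockout against the double from 0 to 6.

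By group mean, Slpi ran from 15 ± 6.7 CPM in WT through 29 ± 16.2 CPM in the MLKL triple knockout, 43.1 ± 26.8 CPM in the XBP1 knockout, 80.8 ± 120.3 CPM in the Casp8 knockout and 119 ± 163 CPM in the TNFR1 triple knockout to 402 ± 163 CPM in the double knockout. The Casp8 and TNFR1 triple means each rested on 1 mouse, and neighbouring groups below the double knockout overlapped. For Saa3, 2 libraries outside the double knockout reached its lowest mouse, and they were again Casp8 knockout replicate 4 and TNFR1 triple knockout replicate 1.

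Slpi, Pla2g2a, Saa3 and Retnlb went together mouse by mouse. The 6 pairs among them had Pearson r between 0.72 and 0.88 over the 30 libraries, on log2 CPM, and between 0.59 and 0.73 after each group's mean was taken off. These are descriptions, and the libraries share genotype groups. Saa1 and Dmbt1 were also paired (r = 0.77, and 0.82 within groups). Over all 45 pairs of members r ran from -0.36 to 0.88.

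Among the genes that are not members but followed the mean of the 10 most closely over the 30 libraries were S100a8 (r = 0.90), S100a9 (0.89), Tnf (0.89), Cyba (0.88), Plet1 (0.88), Clca4b (0.88) and Slc35b1 (0.88). S100a8 and S100a9 form calprotectin, the zinc-binding protein of neutrophils. Slpi was followed most closely by Zc3h12a (r = 0.92), Retnlb by Duox2 (0.89), Saa3 by S100a8 (0.90), Lcn2 by Lrg1 (0.82) and Pigr by Igha (0.78), the constant region of the IgA it carries. S100a8 was at 33.7, 4.31, 7.54, 146 and 69 CPM in the double knockouts and at most 1.40 CPM in WT.

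**Figure D4:**
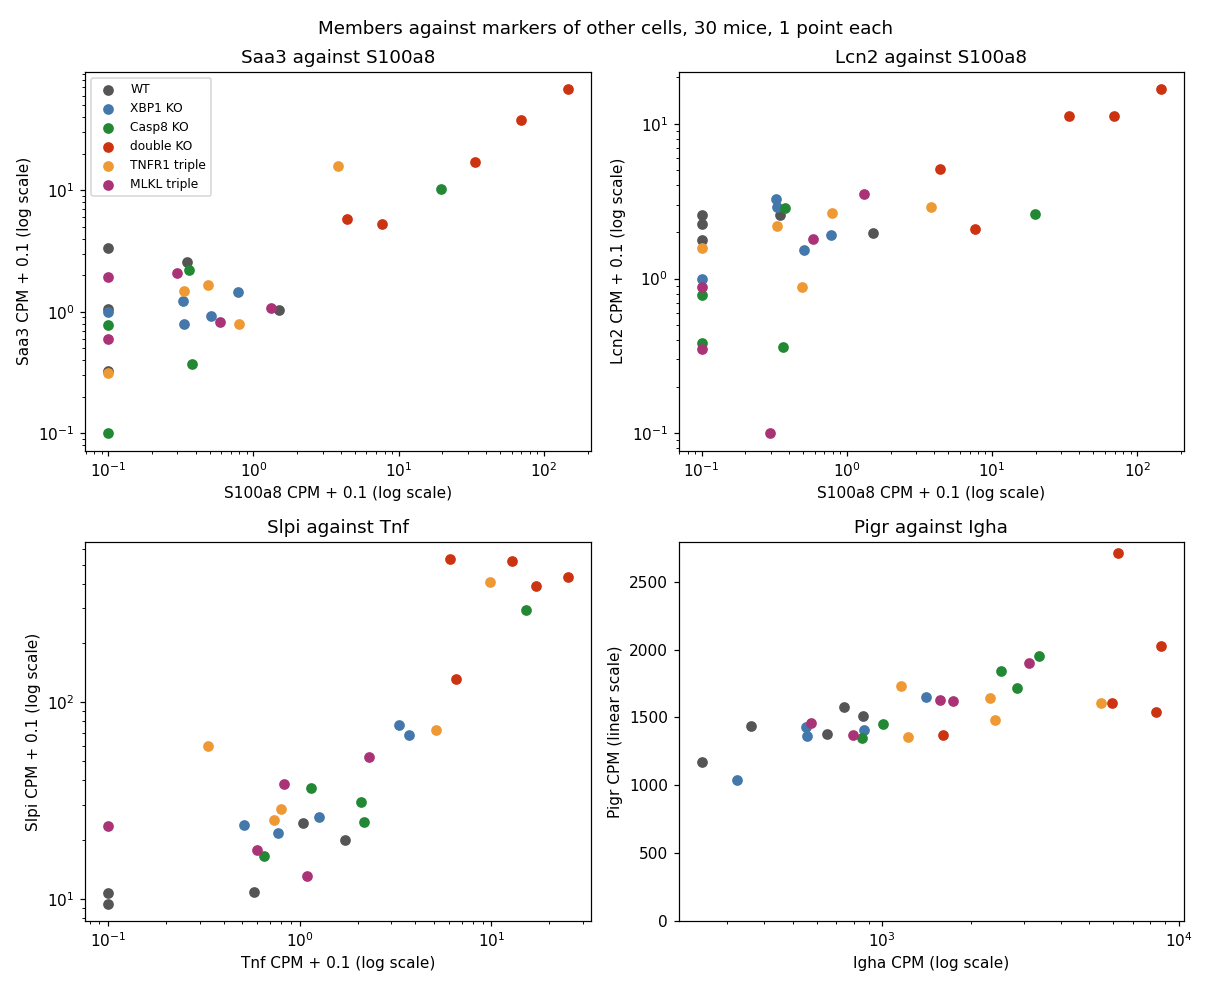
Saa3 and Lcn2 against S100a8, Slpi against Tnf (log axes after adding 0.1 CPM) and Pigr against Igha (linear against log axis), 1 point per mouse coloured by genotype. Double knockout replicate 4 was highest for Saa3, Lcn2, S100a8 and Tnf, and double knockout replicate 3 combined the highest Slpi with the lowest Lcn2 of its group.

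Markers of other cells moved with these genes. Neutrophil markers, 14 genes, summed to 142 to 280 CPM in WT and 244 to 776 CPM in the double knockout, but Ly6g made up 97.6 to 99.9% of the sum in WT. Without Ly6g the other 13 summed to 0.239 to 6.55 CPM in WT and 17.9 to 313 CPM in the double knockout. Fcnb had no read in any of the 30 libraries, and Mpo and Elane at most 0.228 CPM in the double knockout. Monocyte and macrophage markers (15 genes) summed to 357 to 539 CPM in WT and 449 to 981 CPM in the double knockout. Plasma cell markers (10 genes) summed to 464 to 1601 CPM and 2601 to 15588 CPM, and smooth muscle markers (8 genes) to 6850 to 9097 CPM and 3062 to 4468 CPM. Colon epithelium markers (17 genes) summed to 14844 to 18006 CPM in WT and 15679 to 23696 CPM in the double knockout, and goblet markers (12 genes) to 7200 to 10699 CPM and 4478 to 9316 CPM. Their part in the members' differences was not tested.

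Other genes of the same pathways were counted from lists, also chosen with earlier results of these data known. Counts are of the listed genes that passed the low-count filter. Which of them needed double knockout libraries to pass it was not computed. Shares of all genes may thus be no fair measure for these lists. Of 26 other acute-phase genes 11 were in the fit. Of these 11, 10 were higher in the double knockout than in WT and 0 lower, against 11.1% and 10.2% of all genes. The median log2 difference of the 11 was 1.31, against 0.01 over all genes. The smallest p-values were those of Serpina3n, a serine protease inhibitor (3.16 ± 0.40, SE; edgeR adjusted p = 4.66e-06), and Serpina3g (4.45 ± 0.73; adjusted p = 8.34e-05). In the MLKL triple knockout 7 of the 11 were lower than in the double knockout, and in the TNFR1 triple knockout 3, against 4.21% and 1.33% of all genes. In the XBP1 knockout 1 of the 11 was higher than in WT, and in the Casp8 knockout 1. There 0.0841% and 1.17% of all genes passed. The 26 genes summed to 720 to 1075 CPM in WT and 1397 to 2440 CPM in the XBP1 knockout. Their sum was 965 to 2472 CPM in the Casp8 knockout and 1364 to 3294 CPM in the double knockout. Of 34 other antimicrobial genes 17 were in the fit. In the double knockout 5 of the 17 were higher and 2 lower than in WT, the lower count near the share of all genes. The median log2 difference of the 17 was 0.33. Pglyrp1, a peptidoglycan-binding protein, was higher (1.62 ± 0.30; adjusted p = 0.000288) and Mptx1, a mucosal pentraxin, lower (-2.20 ± 0.39; adjusted p = 0.000159). Mptx1 was higher again in the MLKL triple than in the double knockout (2.30 ± 0.39; adjusted p = 0.00051).

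Among cytokines that act on these genes 3 of 17 matched were expressed enough to test, and 2 were higher in the double knockout: Tnf (4.51 ± 0.90, SE; edgeR adjusted p = 0.000577) and Il1b (4.29 ± 0.86; adjusted p = 0.00066). Both were lower in the MLKL triple than in the double knockout (Tnf -3.90 ± 0.83, adjusted p = 0.00373, and Il1b -3.76 ± 0.82, adjusted p = 0.00434). Il22 was read in 1 of 30 libraries, at 0.239 CPM. Of 19 receptors for those cytokines, 8 were higher and 1 lower than in WT, where 11.1% and 10.2% of all genes were, with a median of 0.21, among them Osmr (1.06 ± 0.25; adjusted p = 0.00321), the receptor subunit for oncostatin M. Of 17 transcription factors and feedback genes, 9 were higher and 0 lower, with a median of 0.45, led by Zc3h12a, an RNase that degrades inflammatory transcripts (1.86 ± 0.28; adjusted p = 2.85e-05), and Nfkbia, the inhibitor of NF-kB (0.91 ± 0.15; adjusted p = 9.55e-05). Of 9 partners and receptors of the members, 3 were higher and 2 lower, against the same shares of all genes, with a median of 0.26. Jchain and Igha, which make the polymeric IgA that Pigr carries, were higher by 3.58 ± 0.50 (adjusted p = 1.5e-05) and 3.48 ± 0.53 (adjusted p = 3.78e-05), against 0.43 for Pigr itself.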

How the data were processed

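Colon RNA of 30 mice was read as QuantSeq 3′ libraries. The authors deposited 1 table of estimated counts per gene, in which 11.2% of nonzero values were not whole; the submitters' processing notes name cutadapt 3.2, Subread, featureCounts 2.01, R 4.0.0 and GRCm38, and the annotation release and strand setting are not stated there. The deposited estimated counts were rounded to whole numbers. CPM are counts scaled to a library total of 1000000. Symbols and positions are from GENCODE M21. Genes were tested in 1 fit of all libraries with edgeR 4.0.16 (R 4.3.3; TMM scaling, filterByExpr, which kept 15458 genes, quasi-likelihood F test, Benjamini-Hochberg adjustment within a comparison, threshold 0.05). Alternatives used DESeq2 1.42.0, limma 3.58.1, other scaling and filters, only the groups compared, the replicate number, sex, and each library left out; fits of 1 sex and 2 pairs of libraries left out were chosen after seeing the data. The fit was tested on simulated data. Each sample is a separate mouse per the labels' protocol. The 10 members and the gene lists were chosen with earlier results of these data known. Named are all members in every comparison, of each pathway list the genes of smallest p in the double knockout against WT, the targeted genes, and the genes with the highest correlation with the members; examples of each were printed, and 1 gene of the last kind is not reported here. Floors cover counting error only. Values after ± are not of that kind: an SD is the spread over the mice of a group. An SE is from the edgeR quasi-likelihood fit, which takes in the spread between mice. Reads without molecular identifiers are not independent molecules.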

Additional observations from a re-analysis of the deposited data

Results flagged for a closer look

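In 13 of 60 groups of 5 mice, 1 mouse lay far from the other 4 for a member by Dixon's ratio (critical value 0.71), which chance passes in about 1 in 20 groups of normal values. The rate for skewed counts with many zeros was not computed. Every one was the highest of its group. TNFR1 triple knockout replicate 1 stood out for 5 genes: Slpi at 409 CPM against 71.8 CPM in the next mouse, Pla2g2a at 20.2 CPM against 5.1 CPM in the next, Saa3 at 15.8 CPM against 1.56 CPM in the next, Retnlb at 12.1 CPM against 0.232 CPM in the next and Reg3b at 0.464 CPM against 0 CPM in the next. Casp8 knockout replicate 4 stood out for 3: Slpi at 296 CPM against 36.6 CPM in the next, Saa3 at 10.04 CPM against 2.09 CPM in the next and Reg3b at 2.76 CPM against 0.853 CPM in the next. Reg3b was also far above its group in WT replicate 3, at 147 CPM against 3.04 CPM in the next, in double knockout replicate 2, at 4.55 CPM against 0.794 CPM in the next, and in MLKL triple knockout replicate 2, at 10.5 CPM against 0.261 CPM in the next. Retnlb was at 0.904 CPM against 0.227 CPM in the next in XBP1 knockout replicate 2, and Dmbt1 at 2712 CPM against 1476 CPM in the next in double knockout replicate 1. Causes of these values were not tested.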

How the results depend on the processing

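Of the members' values under the alternatives, 1891 kept their direction and side of the threshold, 126 lost the threshold, 35 gained it, 94 without a call changed sign and 3 reversed. Only values with a call could lose it, and the 1891 include values without a call that stayed so. That number is thus no measure of how well the calls held. Reversed was Reg3b in the double knockout against WT, whose log2 difference ran from -6.07 to 0.53 with 1 library left out (0.53 without WT replicate 3), and was 0.65 in males only and 0.81 without double knockout replicate 1 and WT replicate 3 together. The number of genes called moved as follows; the cause was not tested, except that some fits tested fewer of the 10. With no low-count filter it was 1 for the XBP1 knockout against WT, 4 for the Casp8 knockout against WT and 1 for the MLKL triple knockout against WT. In fits of only the groups compared it was 1 for the XBP1 knockout against WT (5 genes tested), 5 for the double knockout against WT, 3 against the Casp8 knockout and 0 for the TNFR1 triple against the double knockout (9 tested in each). DESeq2 called 3 for the Casp8 knockout against WT, 1 for the interaction and 1 for the TNFR1 triple against the double knockout. Limma voom called 0 for the Casp8 knockout against WT, 5 for the TNFR1 triple against the double knockout and 0 for it against WT. With sex in the model the TNFR1 triple knockout had 1 against the double knockout and 1 against WT. Males only gave 0 for the Casp8 knockout and 5 for the double knockout against WT. Without Casp8 knockout replicate 4 and TNFR1 triple knockout replicate 1 together, the Casp8 knockout against WT had 0, the interaction 3, the TNFR1 triple against the double knockout 7 and against WT 0. Without double knockout replicate 1 and WT replicate 3 together, the double knockout against WT had 5. Leaving out 1 library at a time gave 0 to 1 for the Casp8 knockout against WT, 2 to 5 for the double against the Casp8 knockout, 0 to 2 for the interaction, 0 to 6 for the TNFR1 triple against the double knockout and 0 to 3 for it against WT.

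Replicate numbers gave no sign of pairing the mice. Deviations of same-numbered libraries from their group means correlated between -0.27 and 0.28 over 75 pairs, 19 of them above 0.1. The mean correlation was -0.00027, against 0.00032 for differently numbered libraries. The same number correlated best in 33 of 150 combinations of a library and another group, each a choice among 5 libraries. With the replicate block 7 genes were called in the double knockout against WT, 6 against the XBP1 knockout, 4 against the Casp8 knockout, 6 for the MLKL triple and 2 for the TNFR1 triple against the double, 1 for the Casp8 knockout against WT, 2 for the TNFR1 triple against WT, and 0 in the other 4 comparisons.

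Depth limits the low genes most: Lcn2, Pla2g2a, Retnlb and Saa3 rested on 44, 24, 0 and 31 reads over the 5 WT mice.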
